A study of Mus musculus with 31 samples.

Results

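Lhx1, Lhx2, Lhx5 and Lhx9 encode transcription factors of the LIM-homeobox family, and the peaks of H3K27me3 and H3K9me3 around these 4 genes were described in primordial germ cells of the mouse embryo, from which eggs and sperm arise. The members were all peaks that overlap a fixed window at each gene in the mouse build mm9: Lhx1 at chr11:84315000-84360000, Lhx2 at chr2:38180000-38230000, Lhx5 at chr5:120865000-120915000 and Lhx9 at chr1:140710000-140765000. These windows held 156 of the 265274 peaks in 18 deposited peak lists, of which 146 were H3K27me3 peaks and 10 were H3K9me3 peaks. The windows were selected on the peak lengths of both marks in these same libraries, so every length below is a description and none was tested.

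The germ cells came from wild-type embryos on the background C57BL/6 x GOF18delta_PE-EGFP, in which a fragment of the Pou5f1 (Oct4) gene drives a green fluorescent protein in germ cells, and they were isolated by fluorescence-activated sorting. The groups were E13.5 female cells, E13.5 male cells and E10.5 cells (embryonic days), with 3 libraries of each mark in each group, and no mutant or treated group was part of these lists. Cells of several embryos were combined at E10.5 and carry no sex in the labels, and the labels do not say that replicates were separate animals. The lists hold peaks and no expression values, so they cannot show the germ-cell markers that would check the sort. Each library was made by native chromatin immunoprecipitation from 1000 cells. Fewer cells with a mark and less of the mark per cell cannot be told apart in such bulk samples.

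H3K27me3 is laid down by the Polycomb complex PRC2, often over broad stretches at CpG-rich developmental genes, and goes with silencing of those genes in cell types that do not use them. H3K9me3 marks heterochromatin and many repeats. LIM-homeobox proteins pair LIM domains, which bind cofactors such as Ldb1, with a DNA-binding homeodomain. In the mouse, Lhx1 is needed for the head organiser, the kidney and the female reproductive tract, Lhx2 for the eye and forebrain, Lhx5 for the hippocampus and forebrain, and Lhx9 for the formation of the gonad from its somatic cells.

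The promoters of these genes are shown because CpG content is the sequence feature most often tied to H3K27me3. The sequences are from RefSeq, on GRCm38.p6, 250 bases before to 50 bases after a start, written 5′ to 3′ on the gene's strand with each CG in capitals. The table held 3 of the 4 genes, Lhx1 (chr11:84525485-84525784, minus strand), Lhx2 (2 starts, chr2:38339031-38339330 and chr2:38351058-38351357, plus strand) and Lhx9 (chr1:138842395-138842694, minus strand), and the fourth gene is Lhx5.
Lhx1: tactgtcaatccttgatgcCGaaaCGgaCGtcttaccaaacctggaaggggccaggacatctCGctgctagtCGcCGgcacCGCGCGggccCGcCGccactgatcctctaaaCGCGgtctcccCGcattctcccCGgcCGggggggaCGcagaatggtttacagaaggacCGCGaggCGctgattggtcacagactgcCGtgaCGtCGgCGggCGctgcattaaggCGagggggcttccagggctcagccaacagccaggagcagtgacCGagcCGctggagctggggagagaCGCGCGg
Lhx2, first start: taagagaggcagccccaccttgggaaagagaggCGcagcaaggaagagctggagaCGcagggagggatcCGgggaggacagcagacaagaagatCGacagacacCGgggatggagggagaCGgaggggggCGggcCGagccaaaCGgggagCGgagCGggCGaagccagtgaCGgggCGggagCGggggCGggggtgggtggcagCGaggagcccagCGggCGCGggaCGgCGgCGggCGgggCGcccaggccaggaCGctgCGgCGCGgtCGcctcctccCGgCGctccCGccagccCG
Lhx2, second start: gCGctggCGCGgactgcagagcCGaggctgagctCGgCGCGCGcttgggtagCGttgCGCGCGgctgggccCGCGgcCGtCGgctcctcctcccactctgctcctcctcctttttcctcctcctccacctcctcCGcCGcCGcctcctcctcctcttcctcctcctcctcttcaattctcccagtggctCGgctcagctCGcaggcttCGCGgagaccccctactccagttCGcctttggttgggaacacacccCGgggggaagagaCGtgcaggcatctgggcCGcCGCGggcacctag
Lhx9: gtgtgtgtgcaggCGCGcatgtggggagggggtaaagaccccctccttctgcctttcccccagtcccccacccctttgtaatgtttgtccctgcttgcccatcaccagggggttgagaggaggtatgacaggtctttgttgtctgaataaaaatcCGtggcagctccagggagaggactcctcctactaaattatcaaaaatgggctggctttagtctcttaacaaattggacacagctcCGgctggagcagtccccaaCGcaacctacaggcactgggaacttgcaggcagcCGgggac

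The Lhx1 promoter held 31 CG pairs and 65.7% G or C, and 10.6% of the 32851 promoters in the table held as many CG pairs or more. The Lhx2 promoters held 34 CG pairs (74.7% G or C, 7.73% of promoters with as many) and 29 CG pairs (69.3%, 12.9% of promoters with as many). Lhx9 stood apart from these with 6 CG pairs and 55.3% G or C, and 56.4% of promoters held as many. The median promoter held 7 CG pairs and 52.7% G or C, and 94.6% of promoters held at least 1 CG on either strand, since the motif CG reads the same on both. These are counts in 1 window per start, on another build than the peaks, so no peak was placed on a promoter. In the gene order of that build the genes beside Lhx1 are Aatf and Mrm1, those beside Lhx2 are Dennd1a and Nek6, those beside Lhx5 are Rbm19 and Sdsl, and Nek7 lies beside Lhx9.

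Sequencing depth is unknown, because the lists hold no read counts, and the libraries differed widely in how much was called. H3K27me3 lists held 359 to 7839 peaks (0.159 to 5.22 Mb) at E13.5 and 1703 to 23141 peaks (2.08 to 35.5 Mb) at E10.5, and the mean E13.5 list covered 15.2% of the length of the mean E10.5 list. E13.5 male replicate 2 stood apart: it had the 359 peaks, and H3K9me3 peaks of its namesake library overlapped 45.6% of its length, whereas the other 8 pairs gave 0.0426 to 5.52%. E10.5 replicate 2 had 1703 peaks and was the shortest E10.5 list, within the range of the E13.5 lists. Length is therefore given below in kb and as a share of the library's own peak length in ppm (bases in the window per megabase of peak length). The share of the difference in a window that comes from the length of the lists was not tested.

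At E13.5 all 4 windows carried less H3K27me3 in the mean than at E10.5, and they differed in what was left. The Lhx1 window had no H3K27me3 peak in any of the 6 E13.5 libraries and was marked in all 3 E10.5 libraries. The Lhx2 window carried the longest H3K27me3 of the 4 at E10.5 and short peaks in all 6 E13.5 libraries. Lhx5 kept the longest H3K27me3 in 5 of 6 E13.5 libraries, and Lhx9 had the shortest of the 4 at E10.5. The plot of H3K27me3 length by library gives each value.

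**Figure D1:**
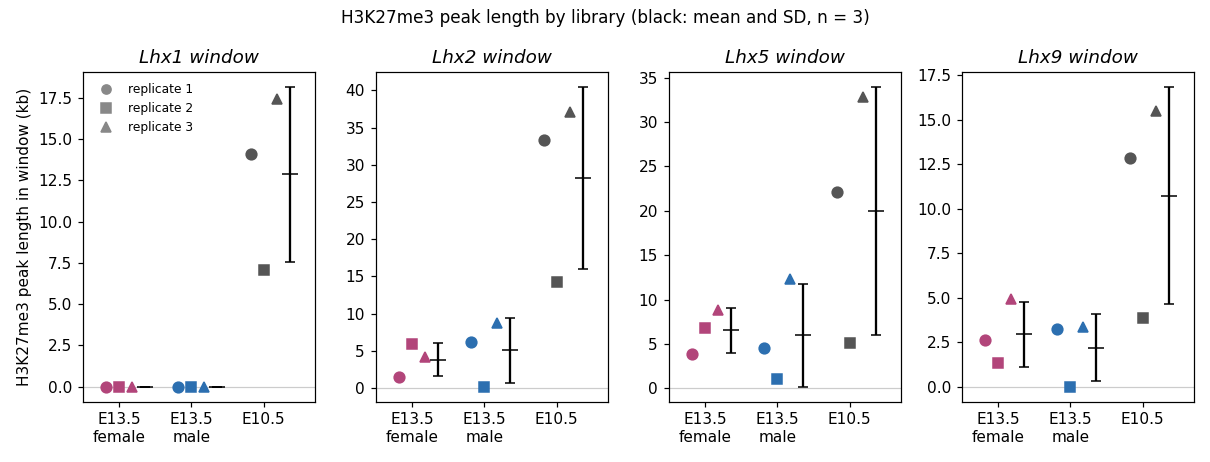
H3K27me3 peak length in kb (y axis) in the window of each gene for the E13.5 female, E13.5 male and E10.5 libraries (x axis), with 1 point per library shaped by replicate number and the mean with SD in black (n = 3 per group). The 6 E13.5 libraries lie at 0 in the Lhx1 panel, and in the Lhx2 panel the highest E13.5 library (8.75 kb) lies below the lowest E10.5 library (14.3 kb).

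Lhx1, the regulator of the head organiser and kidney, was covered by 0 kb of H3K27me3 in E13.5 female replicates 1, 2 and 3 and in E13.5 male replicates 1, 2 and 3, against 14.1, 7.08 and 17.5 kb in E10.5 replicates 1, 2 and 3. No E13.5 library overlapped the E10.5 range, and the E10.5 mean was 12.9 ± 5.30 kb (SD, n = 3), or 28.6% of the window. As a share of the library's peak length the window held 0 ppm in all 6 E13.5 libraries, against 710, 3396 and 491 ppm in E10.5 replicates 1, 2 and 3. The window is listed at 0 in E13.5 cells, so no fold is given.

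At E10.5 the Lhx1 peaks of the 3 libraries overlapped in part. The 13 peaks measured 218 to 9867 bp, and 2 of them were 5 kb or wider. From chr11:84350001 to 84360000 only replicates 1 and 3 had peaks. The 3 E10.5 libraries shared 6.71 kb in 3 stretches, chr11:84332223-84337086 (4864 bp), chr11:84340530-84341771 (1242 bp) and chr11:84342938-84343540 (603 bp). The widest Lhx1 peak measured 9867 bp in E10.5 replicate 1, 4902 bp in replicate 2 and 6333 bp in replicate 3. The replicate 2 peak was the 38th widest of the 1703 in that list. The last Lhx1 peak of E10.5 replicate 3 runs past the edge of the window and was counted up to it.

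The absence of Lhx1 peaks at E13.5 was set beside the length of the lists. E10.5 replicate 2, with 2.08 Mb in all, had 7.08 kb at Lhx1, while 4 E13.5 libraries with longer lists (5.22 and 4.13 Mb in female replicates 2 and 3, 2.47 and 3.99 Mb in male replicates 1 and 3) had 0. With each list held to its 1703 top-ranked peaks and E13.5 male replicate 2 left out, Lhx1 had 0 kb in the other 5 E13.5 libraries, against 13.3, 7.08 and 6.33 kb in the E10.5 libraries. This setting was chosen after seeing the data, and lists with an equal number of peaks still differ in length. How much of the absence at E13.5 comes from the length of the lists was not tested. Among windows of the same 45 kb elsewhere in the genome, with all 4 genes left out, 248 had an E10.5 mean at or above that of Lhx1, and 0 of these had 0 kb in all 6 E13.5 libraries. Windows at 0 in all 6 E13.5 libraries with peaks in all 3 E10.5 libraries numbered 66, or 1.63% of the 4040 with peaks in at least 3 libraries, and the highest E10.5 mean among them was 6.63 kb. With windows of 50 kb and 55 kb that highest mean was 6.44 and 7.87 kb. Of the 374 windows of 55 kb with an E10.5 mean at or above that of Lhx9, 4 had 0 kb in every E13.5 library. None of these 4 had peaks in all 3 E10.5 libraries. The named windows were placed at the genes with these lengths known, while the others form a fixed grid that can cut a marked stretch. The comparison can therefore favour Lhx1, and nothing is read from these counts.

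Lhx2, which acts in eye and forebrain development, had 1.47, 5.90 and 4.10 kb of H3K27me3 in E13.5 female replicates 1, 2 and 3 and 6.18, 0.184 and 8.75 kb in E13.5 male replicates 1, 2 and 3, against 33.3, 14.3 and 37.1 kb in E10.5 replicates 1, 2 and 3. All E13.5 libraries lay below all E10.5 libraries, and the sexes overlapped. The mean was 4.43 ± 3.19 kb at E13.5 (SD, n = 6) and 28.2 ± 12.2 kb at E10.5 (SD, n = 3), a difference of -23.8 kb. The E13.5 mean was 15.7% of the E10.5 mean, beside 15.2% for the whole lists. With 1703 top-ranked peaks a list and E13.5 male replicate 2 left out, the length was 1.47, 4.92 and 3.50 kb in E13.5 female replicates 1, 2 and 3 and 5.60 and 3.47 kb in E13.5 male replicates 1 and 3, against 27.01, 14.3 and 36.2 kb in the E10.5 libraries. In kb the stages stayed apart in that setting too, which was chosen after seeing the data. As a share of the length of the kept peaks they overlapped, with 4452 ppm in E13.5 male replicate 1 and 4283 ppm in E10.5 replicate 3.

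Relative to the length of its list the Lhx2 window did not separate the stages. Its share was 941, 1130 and 994 ppm in E13.5 female replicates 1, 2 and 3 and 2498, 1157 and 2195 ppm in E13.5 male replicates 1, 2 and 3, against 1676, 6850 and 1046 ppm in E10.5 replicates 1, 2 and 3. The E13.5 values overlap those of E10.5, and E10.5 replicate 2, the shortest E10.5 list, had the highest share. The 3 female shares all lay below the 3 male shares, by a gap of only 1130 against 1157 ppm between the nearest pair. Of 3976 windows of 50 kb tested, 0.931% had every female share below every male share, and since the windows were chosen with these values known nothing is read from that count.

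The Lhx2 peaks differed in width as well as in total. E10.5 replicate 1 had a peak of 27009 bp, the 10th widest of the 11330 in its list, and the widest in E10.5 replicates 2 and 3 measured 5851 and 11850 bp. No Lhx2 peak of an E13.5 library passed 3470 bp, and the median was 454 bp in 15 female peaks and 747 bp in 14 male peaks. The 3 E10.5 libraries shared 14.3 kb in 6 stretches, the longest chr2:38207640-38213490 (5851 bp), so that all of the E10.5 replicate 2 length lay within peaks of both other E10.5 libraries. Of the E13.5 length, 100% lay inside E10.5 replicate 3 peaks in all 6 libraries, where 74.3% of the window was covered. A stretch of 107 bp, chr2:38196066-38196172, was covered in 8 of the 9 libraries, more than any other in the window.

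Lhx5, known for its part in forebrain and hippocampus development, had 3.90, 6.82 and 8.84 kb of H3K27me3 in E13.5 female replicates 1, 2 and 3 and 4.52, 1.07 and 12.3 kb in E13.5 male replicates 1, 2 and 3, against 22.1, 5.10 and 32.8 kb in E10.5 replicates 1, 2 and 3. The stages overlapped, because E10.5 replicate 2 lay below 3 E13.5 libraries. The mean was 6.25 ± 3.98 kb at E13.5 (SD, n = 6) and 19.99 ± 13.96 kb at E10.5 (SD, n = 3), a difference of -13.7 kb that is smaller than the SD of the E10.5 group. Without E10.5 replicate 2 the difference was -21.2 kb and the stages no longer overlapped, and without E10.5 replicate 3 it was -7.34 kb.

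In Lhx5 the share of the list ran the other way from the length. The share was 2503, 1307 and 2142 ppm in E13.5 female replicates 1, 2 and 3 and 1828, 6697 and 3091 ppm in E13.5 male replicates 1, 2 and 3, against 1111, 2449 and 923 ppm in E10.5 replicates 1, 2 and 3. The mean share was 2928 ppm at E13.5 and 1494 ppm at E10.5, with overlapping libraries. The highest value was that of the 359-peak list, E13.5 male replicate 2, and without it the difference was 680 ppm instead of 1434 ppm. Without E10.5 replicate 2 it was 1911 ppm and the stages did not overlap.

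Lhx5 held the only E13.5 peak of the 4 windows that reached 5 kb, 6067 bp in male replicate 3 and the 7th widest of 5326 in that list. The widest E10.5 peaks there measured 16837 bp in replicate 3 and 10986 bp in replicate 1, whose first peak runs past the edge of the window and was counted up to it. The 3 male libraries shared 1 stretch, chr5:120889319-120889788 (470 bp), and the 3 female libraries shared 1.67 kb in 5 stretches. The 3 E10.5 libraries shared 5.10 kb in 4 stretches, the longest chr5:120883612-120886392 (2781 bp). None of the peak length of E13.5 male replicate 2 in this window lay within peaks of E10.5 replicate 2, and 100% lay within those of E10.5 replicates 1 and 3.

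Lhx9, which the somatic cells of the early gonad need, had 2.62, 1.31 and 4.91 kb of H3K27me3 in E13.5 female replicates 1, 2 and 3 and 3.22, 0 and 3.34 kb in E13.5 male replicates 1, 2 and 3, against 12.9, 3.84 and 15.5 kb in E10.5 replicates 1, 2 and 3. All male libraries lay below all E10.5 libraries, and female replicate 3 lay above E10.5 replicate 2. The mean was 2.57 ± 1.71 kb at E13.5 (SD, n = 6) and 10.7 ± 6.12 kb at E10.5 (SD, n = 3), a difference of -8.17 kb. Without E10.5 replicate 2 the difference was -11.6 kb, without E13.5 female replicate 3 it was -8.64 kb, and in both cases the stages did not overlap.

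The share of the list in the Lhx9 window was 1682, 251 and 1188 ppm in E13.5 female replicates 1, 2 and 3 and 1300, 0 and 838 ppm in E13.5 male replicates 1, 2 and 3, against 648, 1844 and 437 ppm in E10.5 replicates 1, 2 and 3. These groups overlapped throughout, with a mean of 876 ppm at E13.5 and 976 ppm at E10.5. The sign of that difference turned when E13.5 female replicate 2 (25.5 ppm), E13.5 male replicate 2 (75.6 ppm) or E10.5 replicate 2 (334 ppm) was left out.

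**Figure D2:**
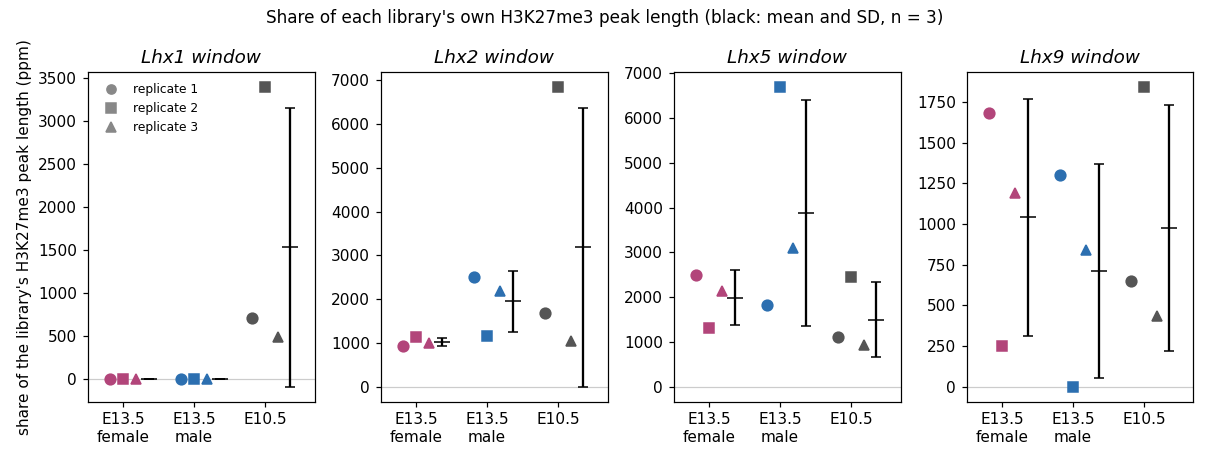
Share of each library's own H3K27me3 peak length in the window of each gene, in ppm (y axis), for the E13.5 female, E13.5 male and E10.5 libraries (x axis), with 1 point per library and the mean with SD in black (n = 3 per group). Only the Lhx1 panel keeps the E13.5 libraries (0 ppm) apart from the E10.5 libraries (491 to 3396 ppm), and E13.5 male replicate 2 stands highest in the Lhx5 panel at 6697 ppm.

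Counted over the 4 genes, every E13.5 library was below every E10.5 library in kb at 2 windows, Lhx1 and Lhx2, where 8.35% of the 3976 tested 50-kb windows of the genome did so. In ppm this held for Lhx1 alone, against a background of 4.35%. No window had every E13.5 library above every E10.5 library (background 0.151%). The male libraries alone were all below E10.5 at 3 of 4 windows, Lhx9 being added (background 12.1%). No window had all female libraries above or all below all male libraries in kb, where the background was 6.34% for higher and 0.478% for lower. At Lhx2 that overlap rests on E13.5 male replicate 2: without it the female minus male difference was -3.64 kb, against -1.22 kb with it, and the female libraries all lay below the male ones. Without the same library, the E13.5 minus E10.5 difference was -22.96 kb at Lhx2, -12.7 kb at Lhx5 and -7.66 kb at Lhx9. At Lhx1 the difference of -12.9 kb could not move, since every E13.5 library there is at 0 kb. The choice of windows used these contrasts, so the counts are given with nothing read from them.

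Across the genome, the median tested 50-kb window had 0.261 kb at E13.5 and 2.35 kb at E10.5, and 91.6% of them had the lower mean at E13.5. The ranks below set 4 windows, placed at the genes with their lengths known, against a fixed grid that can split a marked stretch. They can therefore favour the 4 windows. Against windows of their own length, the Lhx2 window was exceeded by 86 of 3970 other tested windows at E13.5 and by 18 at E10.5. The Lhx5 window was exceeded by 41 of 3970 at E13.5 and by 85 at E10.5. Lhx9 was exceeded by 253 of 3883 at E13.5 and by 370 at E10.5, and Lhx1 by 248 of 4040 at E10.5. Lhx2 and Lhx5 thus changed places between the stages, Lhx2 having the longer mean at E10.5 (28.2 against 19.99 kb) and Lhx5 at E13.5 (6.25 against 4.43 kb). Each of these gaps is smaller than the SD of either gene, which measures the spread between libraries and not the gap within a library. Within libraries, Lhx2 was longer than Lhx5 in every E10.5 library. Lhx5 was the longer in every E13.5 library but male replicate 1.

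**Figure D3:**
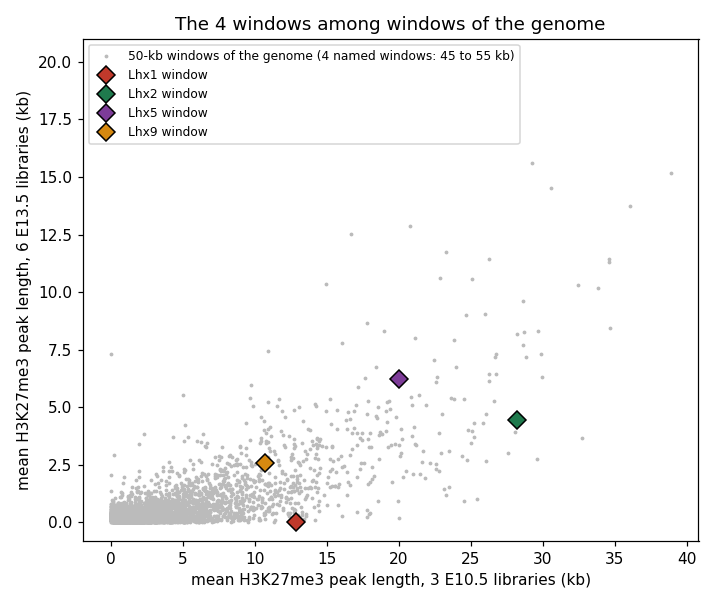
Mean H3K27me3 peak length in kb over the 6 E13.5 libraries (y axis) against that over the 3 E10.5 libraries (x axis), with grey points for 50-kb windows of the genome and diamonds for the 4 named windows, which are 45 to 55 kb long. The Lhx1 diamond lies on the floor of the plot at 0 and 12.9 kb, while Lhx5 (6.25 and 19.99 kb) and Lhx2 (4.43 and 28.2 kb) lie among the windows with the longest H3K27me3.

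The order of the genes within a library also varied. In E10.5 replicates 1 and 3 it was Lhx2, Lhx5, Lhx1 and Lhx9, from long to short, and in E10.5 replicate 2 Lhx1 came before Lhx5. In E13.5 libraries Lhx5 came first, except in male replicate 1, where Lhx2 did (6.18 against 4.52 kb). The second place at E13.5 went to Lhx9 in female replicates 1 and 3 and to Lhx2 in female replicate 2 and male replicates 2 and 3. Summed over the 4 windows, the length ran from 1.25 to 24.4 kb in the E13.5 libraries and from 30.3 to 103 kb in the E10.5 libraries, with no overlap.

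H3K27me3 peaks were narrower at E13.5 in these windows, as they were over the whole lists. The 86 E13.5 peaks in the windows had a median width of 666 bp and 1 was 5 kb or wider, whereas the 60 E10.5 peaks had a median of 1514 bp and 13 were 5 kb or wider. Over all H3K27me3 peaks the median was 495 bp at E13.5, with 26 of 26488 at 5 kb or wider (0.0982%), and 793 bp at E10.5, with 2123 of 36174 (5.87%). How much of the E13.5 length lay in regions marked at E10.5 depended on the E10.5 library. The share inside peaks of E10.5 replicate 3 was 88.2 to 100% at Lhx5 and, in the 5 E13.5 libraries with a peak, 95.8 to 100% at Lhx9, where 65.6% and 28.2% of the windows were covered. Over the whole lists that share was 56.0 to 82.1%. Against the shorter E10.5 replicate 1 list it was 99.2 to 100% at Lhx2, 61.8 to 100% at Lhx5 and 46.8 to 100% at Lhx9, and 56.5 to 78.7% over the whole lists. Against E10.5 replicate 2, the shortest list, it was 50 to 100% at Lhx2, 0 to 33.4% at Lhx5 and 0.684 to 22.6% at Lhx9, and 11.3 to 41.8% over the whole lists. The map of H3K27me3 peaks shows these positions for each library.

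**Figure D4:**
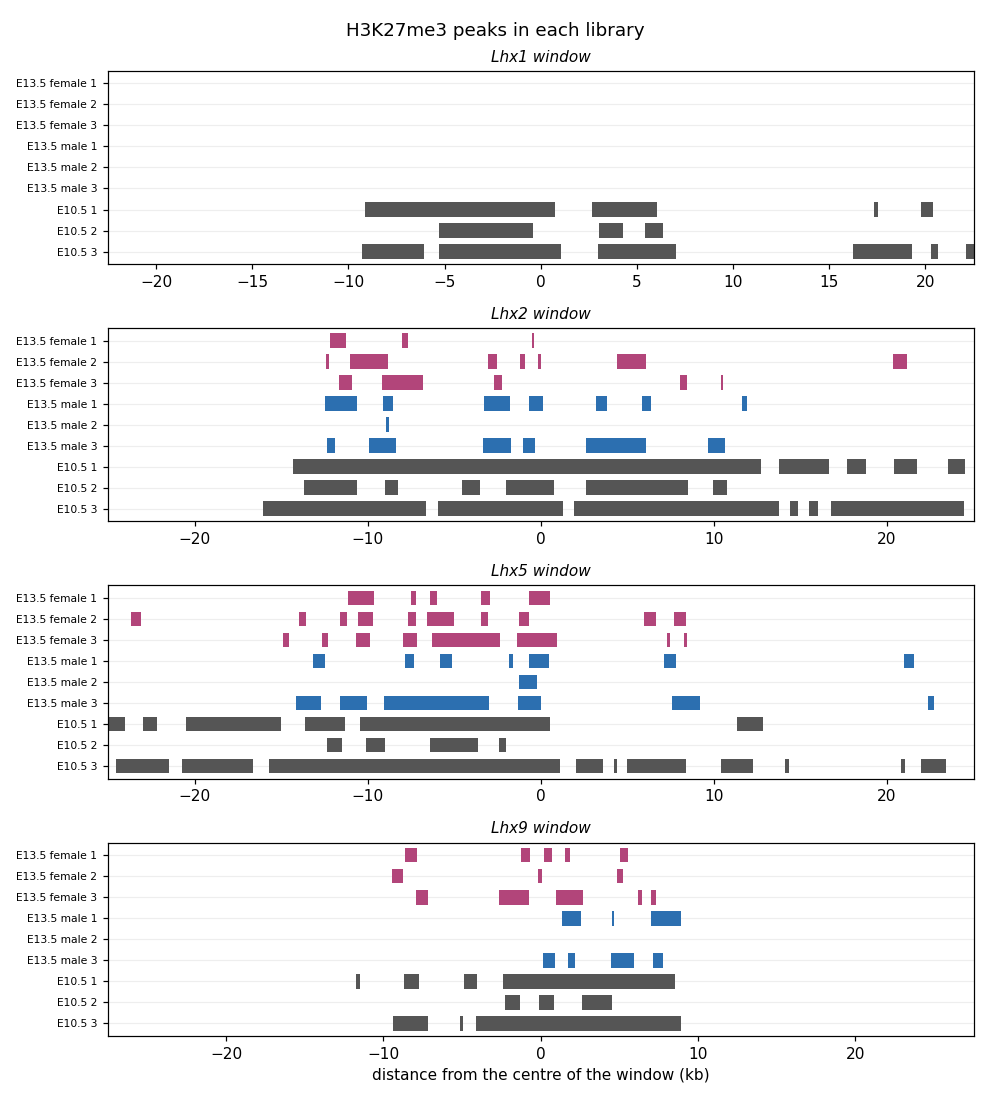
H3K27me3 peaks of each of the 9 libraries (rows) along the window of each gene, by distance from the centre of the window in kb (x axis), with bars for peaks in E13.5 female (magenta), E13.5 male (blue) and E10.5 libraries (grey). Bars of E10.5 replicates 1 and 3 run on for up to 27009 bp, the E13.5 bars are short and mostly share positions with them, and the Lhx1 rows of E13.5 are empty.

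Split into segments of 5 kb, the windows gave 40 segments, of which 22 had peaks in at least 3 libraries and 11 had none in any. In 9 of the 22 every E13.5 library lay below every E10.5 library, 3 at Lhx1, 5 at Lhx2, 0 at Lhx5 and 1 at Lhx9, where the background over 7731 segments of the genome was 9.22%. No segment had every E13.5 library above every E10.5 library (background 0.181%). The segments are adjoining pieces of windows chosen with these contrasts known, and at Lhx1 every E13.5 value is 0. Nothing is therefore read from these counts. The Lhx2 segments lay at chr2:38190001-38195000 and from chr2:38200001 to 38220000. The segment with the Lhx2 stretch shared by 8 libraries, chr2:38195001-38200000, was not among them, since E13.5 female replicate 3 had 2.34 kb there and E10.5 replicate 2 had 0.777 kb.

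Of the 22 segments, 1 had every female library above every male library, at Lhx9, and 4.84% of the 7731 segments of the genome did, so this count is near the background. In chr1:140725001-140730000 the length was 0.773, 0.697 and 0.412 kb in E13.5 female replicates 1, 2 and 3, against 0, 0 and 0 kb in E13.5 male replicates 1, 2 and 3. In E10.5 replicates 1, 2 and 3 it was 1.16, 0 and 1.90 kb. All female libraries thus had a peak there and no male library did, but male replicate 2 had no H3K27me3 peak anywhere in the Lhx9 window. At the other end of the marked region, the segment chr1:140745001-140750000 held 0, 0 and 0 kb in E13.5 female replicates 1, 2 and 3. It held 1.38, 0 and 0.276 kb in E13.5 male replicates 1, 2 and 3, and 1.03, 0 and 1.44 kb in the E10.5 libraries. The edge of the segment sets this contrast. A peak of female replicate 3, chr1:140744533-140744828, ends just before it and overlaps those of male replicates 1 (chr1:140744531-140746380) and 3 (chr1:140744610-140745276).

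H3K9me3 peaks were few in these windows. Peaks in at least 3 libraries were found in 1 of the 4 windows, Lhx9, and in 15004 of the 52840 windows of 50 kb in the genome (28.4%). The Lhx1 and Lhx2 windows had no H3K9me3 peak in any of the 9 libraries, and Lhx5 had 1, of 0.423 kb in E13.5 male replicate 1 at chr5:120912091-120912513. That library had the longest H3K9me3 list of the 9, with 78.9 Mb. No window had every E13.5 library above or below every E10.5 library, where the background over 15004 tested windows was 0.613% for higher and 0% for lower.

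Lhx9 held the other 9 H3K9me3 peaks. Its H3K9me3 length was 0.821, 0.675 and 0 kb in E13.5 female replicates 1, 2 and 3 and 1.85, 0 and 1.83 kb in E13.5 male replicates 1, 2 and 3, against 0, 0.359 and 0 kb in E10.5 replicates 1, 2 and 3. The groups overlapped at 0. The libraries with a peak came from lists as short as 6.04 Mb (E13.5 female replicate 1), while E13.5 male replicate 2, with 46.9 Mb, had none. All 5 libraries with H3K9me3 there covered the same 266 bp, chr1:140737913-140738178. That stretch lies inside one of the 3 stretches that all E10.5 libraries marked with H3K27me3, chr1:140737358-140738329 (972 bp).

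Between libraries of the same group and number, both marks covered the same bases at Lhx9 over 0.475 kb in E13.5 female replicate 1, 0.141 kb in E13.5 male replicate 1, 0.604 kb in E13.5 male replicate 3 and 0.359 kb in E10.5 replicate 2. The other 5 pairs shared none. Such pairs are separate immunoprecipitations, so these values do not show both marks on the same nucleosomes.

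**Figure D5:**
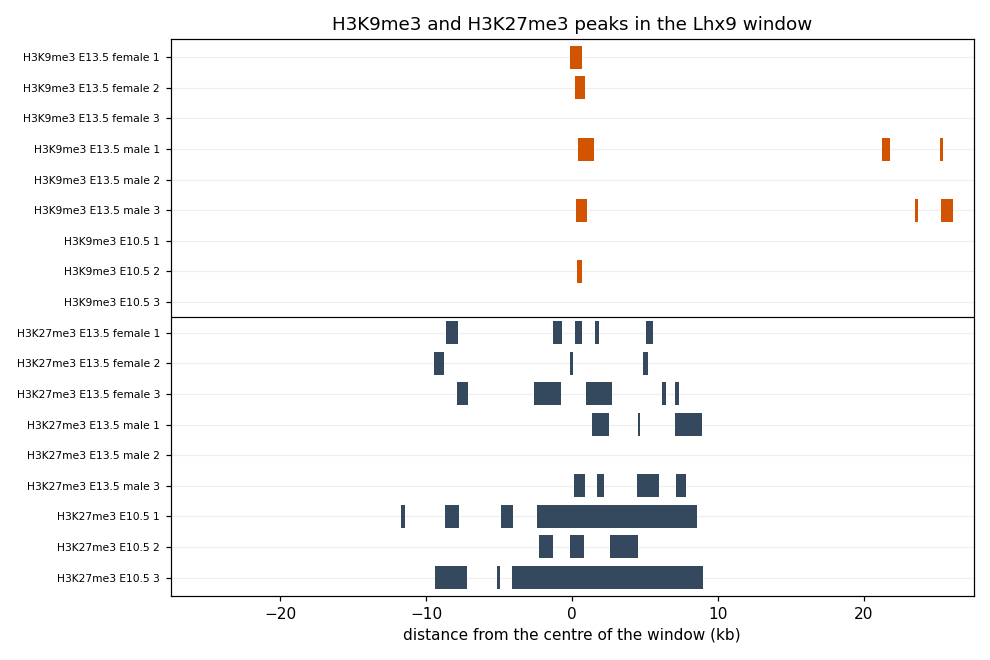
Peaks of H3K9me3 (upper 9 rows, orange) and H3K27me3 (lower 9 rows, dark blue) in the Lhx9 window for each library, by distance from the centre of the window in kb (x axis), with E13.5 female, E13.5 male and E10.5 libraries in that order in each part. The H3K9me3 peaks of 5 libraries overlap near the centre, where they have 266 bp in common, over the H3K27me3 of E10.5, and 2 male libraries have further H3K9me3 peaks more than 20 kb to the right, where there is no H3K27me3.

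The regions most like each gene were found by the Euclidean distance of covered kb over the 9 H3K27me3 libraries, among autosomal 50-kb windows. Nearest to Lhx1 was chr6:85100001-85150000, at a distance of 2.57 kb, and it differed in having H3K27me3 in 3 E13.5 libraries (1.38 kb in female replicate 2, 1.35 and 0.720 kb in male replicates 1 and 3). Its E10.5 values were 12.8, 7.79 and 17.7 kb. Nearest to Lhx9 was chr1:57000001-57050000 at 3.71 kb, to Lhx2 chr15:98600001-98650000 at 5.91 kb, and to Lhx5 chr11:98150001-98200000 at 7.87 kb. The next 2 windows lay at 4.04 and 4.11 kb for Lhx1, 3.86 and 4.19 kb for Lhx9, 7.40 and 7.44 kb for Lhx2, and 8.26 and 8.54 kb for Lhx5. Among the 4 genes the closest pair was Lhx1 and Lhx9, 8.36 kb apart, then Lhx2 and Lhx5 at 16.6 kb, and the other pairs lay 22.7 to 32.5 kb apart. The windows listed for each gene lay closer to it than any other of the 4 genes did. They were picked as the closest of all autosomal windows, against few other genes, so nothing is read from this. The distance weighs the long E10.5 lists most.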

How the data were processed

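Sorted germ cells were profiled for both marks by native ChIP-seq scaled down to few cells (1000 cells, micrococcal nuclease, 250 ng of antibody and 100-bp paired ends, per the labels' protocols). The 18 lists used hold broad peaks called per library on mm9, and 13 input samples were not analysed here. Per the submitters' processing notes, MACS2 2.1.0, deepTools 3.3.0, BWA 0.7.5a, CASAVA 1.8.4, SAMtools and Picard were used. Those notes assign these tools no role or threshold. The score of each peak is the authors' deposited value, of unknown scale, and served only to rank or filter peaks. H3K27me3 E10.5 replicate 3 names an H3K9me3 input as its control.

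With Python 3.11.15, numpy 2.4.6 and matplotlib 3.10.9, peaks of each list were merged and clipped to each window. Length was expressed in kb, as percent of the window and in ppm of the list, and 19 mitochondrial peaks were left out of 265293. Background windows tile the genome in 50 or 5 kb and were tested when at least 3 of 9 libraries had a peak. The calculation was tested on simulated data with known lengths. The members and lists were chosen with earlier results of these data known. All 4 genes are named, with the 3 windows most like each. No mm9 annotation was at hand, so positions relative to exons and start sites and the other family genes listed for this work (Lhx3, Lhx4, Lhx6, Lhx8, Isl1, Isl2, Lmx1a, Lmx1b, Ldb1 and Ldb2) were not analysed here, and the tie of each window to its gene was not checked. Alternatives were score minimums, equal numbers of top-ranked peaks, window edges, whole peaks, tiling and leaving out each library. Means ± SD describe the spread between libraries, which may be technical, and no test was run.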

Additional observations from a re-analysis of the deposited data

Results flagged for a closer look

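Among the 6 E13.5 libraries, 3 values stood far from the others by the gap between the extreme library and its nearest neighbour (above the 95% critical share of the whole range in Dixon's test for 6 values). Chance gives such a gap in about 1 in 20 groups of independent values from 1 normal distribution. The lengths and shares here were not shown to be such values. The screen took in the 4 windows, each for 2 marks and on 2 scales, kb and share of the list. Sets at 0 in all 6 libraries could not be flagged. The 2 scales rest on the same peaks, so the sets are not independent. No excess over chance is therefore read from the number of flagged values. The share of H3K27me3 in the Lhx5 window was 6697 ppm in E13.5 male replicate 2, the list with 359 peaks, against 1307 to 3091 ppm in the other 5. The H3K9me3 length in the Lhx5 window was 0.423 kb in E13.5 male replicate 1 and 0 kb in the other 5, which in share of the list is 5.36 ppm against 0. These are 1 peak given on 2 scales, and a lone peak among 5 values of 0 meets this criterion at any size, so the chance rate does not apply to it. That list was the longest of H3K9me3, and the part of list length in these values was not tested.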

How the results depend on the processing

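Of 278 values recomputed under alternatives, 263 moved by no more than the spread between libraries, or 1.5 times for counts, and 15 moved further. The 263 include contrasts at 0 in every library, which could not move. These are H3K9me3 between stages at Lhx1 and Lhx2, and H3K27me3 between sexes at Lhx1. Changes of sign within the spread are also among the 263. The stage difference in the Lhx2 share, for one, went from -1705 to 125 ppm without E10.5 replicate 2. The E13.5 minus E10.5 difference in kb was below 0 in 67 of 68 alternatives over the 4 genes, and in ppm in 47 of 68. In the 17 alternatives for Lhx1 every E13.5 value was 0, so the difference there could not be above 0. For Lhx9 the wider and narrower windows and whole peaks left the kb difference at -8.17 kb. The stages did not overlap in 16 of 17 alternatives for Lhx1 and for Lhx2, in 4 of 17 for Lhx9 and in 1 of 17 for Lhx5. The exception for Lhx1 and Lhx2, and the one with a sign other than negative, was the 359 top-ranked peaks of every list, which gave -2.11 kb for Lhx1, -11.7 kb for Lhx2 and 0.358 kb for Lhx9. In ppm it gave -10645 for Lhx2, -1497 for Lhx5 and 1791 for Lhx9, and for H3K9me3 at Lhx9 it gave 0 kb. By its construction this setting keeps few peaks of the long E10.5 lists. With 1703 top-ranked peaks and without E13.5 male replicate 2, a setting chosen after seeing the data, Lhx1 gave -8.89 kb. A score of at least 20 gave 0.0493 kb for H3K9me3 at Lhx9 and 574 windows of the genome lower at E13.5, against 332. In share of the list, 173 windows were lower and 26 higher, against 332 and 6 in kb. Leaving out 1 library gave -15.8 to -10.6 kb for Lhx1, -30.8 to -19.4 kb for Lhx2, -21.2 to -7.34 kb for Lhx5 and -11.6 to -5.79 kb for Lhx9. It gave 265 to 2726 lower windows, the highest without E10.5 replicate 2, and 6 to 12 higher windows (12 without E13.5 male replicate 1, 10 without E10.5 replicate 3). No paired analysis was possible because every comparison is a description of windows chosen on these values, with no test to which a block could be added. Depth is unknown, so a window with no peak is not shown to lack the mark.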
